A study of Homo sapiens with 6 samples.

Results

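*EMR2* and 9 other genes of the myeloid lineage were followed in total RNA-seq of SEM cells, a human B-cell acute lymphoblastic leukemia (B-ALL) line. The other members were *CD97*, *SPI1*, *CEBPA*, *CEBPB*, *LYZ*, *CD33*, *CSF1R*, *CSF3R* and *LGALS1*. They were found by gene symbol, 10 of the 57820 genes listed, and 9 of the 10 were expressed above 1 CPM (counts scaled to library size) in at least 1 library. *EMR2* was chosen by its higher level in CTCF-dRBR in these same libraries, so its difference between the groups is a description and was given no p-value.

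There were 3 CTCF-WT and 3 CTCF-dRBR libraries, and the comparison asked whether gene expression depends on the RNA-binding region (RBR) of CTCF. In all 6, endogenous CTCF carried a miniAID-mClover3 tag and the cells expressed OsTIR1 F74G. Treatment with 5-Ph-IAA, an auxin analog, for 24 h degraded the tagged protein. The methods give its dose as 1 or 10 µM and do not say which these libraries had. During the last 18 h, 1 µg/mL doxycycline induced HA-tagged CTCF, wild-type in CTCF-WT and without the RBR in CTCF-dRBR. The genotype label of CTCF-dRBR is CTCF-miniAID-mClover3+ TRE3G-HA-CTCF-dRBR, where TRE3G is a doxycycline-responsive promoter, while that of CTCF-WT is CTCF-miniAID-mClover3 with no HA-CTCF named. The groups were therefore taken from the titles. According to the methods, each construct was carried by its own transduced line, so all libraries of a group came from the same line. A difference between the groups thus cannot be told apart from a difference between the lines. Total RNA was depleted of ribosomal RNA, and the labels describe single-end reads while the methods describe paired-end reads.

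SEM carries a KMT2A::AFF1 fusion, and leukemias with KMT2A fusions can express myeloid genes beside a B-cell program. In normal blood, the transcription factors PU.1 (*SPI1*) and C/EBPα (*CEBPA*) set up the myeloid program, and receptors for colony-stimulating factors carry the growth signals of monocytes and granulocytes. EMR2 and CD97 are adhesion G protein-coupled receptors of leukocytes, with a row of EGF-like domains on the outside of the cell. EMR2 is found on monocytes, macrophages and granulocytes and binds chondroitin sulfate, whereas CD97 is found on most leukocytes and also binds CD55.

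The 2 receptor genes lie less than 500000 bases apart on chromosome 19 of GRCh37. *EMR2* (ENSG00000127507.13, named *ADGRE2* in newer annotations) spans chr19:14843204-14889372 on the minus strand, and *CD97* (ENSG00000123146.15, *ADGRE5*) spans chr19:14491313-14519537 on the plus strand. Parts of their coding sequence are nearly the same, which bears on how reads were assigned to them. Of the 100-base windows in *EMR2* transcripts, 400 of 9492 (4.21%) also occurred in *CD97* transcripts, where they made up 6.92% of 5783 windows. No such window was shared by either gene with *EMR1*, *EMR3* or *EMR4P*, the other members of the family. Among the coding exons, 24 in *EMR2* and 22 in *CD97*, 6 pairs of equal length were at least 80% identical. Of these, 4 pairs are shown from the GRCh37 genome, 5′ to 3′ on the coding strand, with capitals at the bases that differ. The first pair was identical over its 147 bases and is printed once. The second pair differed at 1 base of 147 and the third pair at 3 bases of 156. The last pair, of 78 bases, was the least alike of the 6 (88.5% identical).
*EMR2* chr19:14876470-14876616 (minus) and *CD97* chr19:14508470-14508616 (plus): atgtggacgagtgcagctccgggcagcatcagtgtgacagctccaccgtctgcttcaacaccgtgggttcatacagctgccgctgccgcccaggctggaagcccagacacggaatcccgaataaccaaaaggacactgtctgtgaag
*EMR2* chr19:14877047-14877193 (minus): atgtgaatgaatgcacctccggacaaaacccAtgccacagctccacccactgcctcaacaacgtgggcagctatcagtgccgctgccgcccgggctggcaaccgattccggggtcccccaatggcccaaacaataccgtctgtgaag
*CD97* chr19:14507889-14508035 (plus): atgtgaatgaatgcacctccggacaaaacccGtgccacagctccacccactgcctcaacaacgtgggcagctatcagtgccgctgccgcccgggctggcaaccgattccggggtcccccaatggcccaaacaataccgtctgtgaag
*EMR2* chr19:14883154-14883309 (minus): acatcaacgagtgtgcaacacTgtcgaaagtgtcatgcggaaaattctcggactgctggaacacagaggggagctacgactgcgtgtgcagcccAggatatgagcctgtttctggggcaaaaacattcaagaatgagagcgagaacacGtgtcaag
*CD97* chr19:14501736-14501891 (plus): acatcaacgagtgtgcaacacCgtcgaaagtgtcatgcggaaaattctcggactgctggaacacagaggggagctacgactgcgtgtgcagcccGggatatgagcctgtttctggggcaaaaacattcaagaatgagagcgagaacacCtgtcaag
*EMR2* chr19:14876132-14876209 (minus): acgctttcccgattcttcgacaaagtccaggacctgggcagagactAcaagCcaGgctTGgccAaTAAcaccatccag
*CD97* chr19:14508874-14508951 (plus): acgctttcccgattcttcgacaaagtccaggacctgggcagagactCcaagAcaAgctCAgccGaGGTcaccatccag

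The libraries held 51732177 to 53166735 counts in CTCF-WT and 30034505 to 50457168 in CTCF-dRBR. CTCF-dRBR replicate 1, the shallowest, stood apart, with Spearman's rho of 0.913 to 0.968 to each of the other libraries across the genes tested, against 0.971 to 0.997 for all other pairs. Levels also followed the GC content of genes differently from library to library. Spearman's rho across genes between GC content and a library's deviation from the mean was 0.713, 0.678 and 0.331 in CTCF-WT replicates 1, 2 and 3, and −0.787, −0.437 and 0.510 in CTCF-dRBR replicates 1, 2 and 3. Results are therefore given with all 6 libraries, with CTCF-dRBR replicate 1 left out and with the GC trend removed. *CTCF*, to which endogenous and induced transcripts both count, had a mean of 223 ± 21.98 CPM in CTCF-WT against 263 ± 10.4 CPM in CTCF-dRBR (SD, n = 3, log2 fold change 0.24, limma-voom adjusted p = 0.202), so these counts do not check the labels. No gene of the 14044 tested passed an adjusted p of 0.05 in limma-voom (0.0%), while 3569 had an unadjusted p under 0.05 (25.4%). By edgeR's quasi-likelihood test 0 passed and 3460 had an unadjusted p under 0.05, and DESeq2 called 1619 genes (11.5%).

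*EMR2* was expressed at a low level in CTCF-WT and at a higher one in every CTCF-dRBR library. Where 3 values are given for a group, they are those of replicates 1, 2 and 3 in this order. Its level was 4.77, 4.39 and 4.17 CPM in CTCF-WT against 10.3, 11.4 and 13.2 CPM in CTCF-dRBR. The lowest CTCF-dRBR library was above the highest CTCF-WT library, and in this gene CTCF-dRBR replicate 1 lay with its group. The means were 4.44 ± 0.305 CPM (SD, n = 3) and 11.7 ± 1.44 CPM, a log2 fold change of 1.39. Leaving out CTCF-dRBR replicate 1 gave 1.47, and removing the GC trend gave 1.50. Across the genes tested, 2.25% had a log2 fold change above 1, and in 20.0% the groups did not overlap and CTCF-dRBR was higher, which is background to a value that the choice of the gene fixed. Over 22 settings its log2 fold change lay between 0.97 and 1.69. In the deposited TPM, which account for gene length, *EMR2* had 0.47, 0.54 and 0.77 in CTCF-WT and 2.13, 2.07 and 2.12 in CTCF-dRBR. In bulk RNA, a change in the number of cells that express a gene cannot be told apart from a change in its level per cell.

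The 3′ end of *EMR2* overlaps that of *ZNF333*, a zinc-finger gene on the opposite strand, over 1355 bases. The deposited counts are marked as stranded, but the methods do not say how the counting used the strand. *ZNF333* had 15.7 ± 0.994 CPM in CTCF-WT against 15.7 ± 1.96 CPM in CTCF-dRBR (log2 fold change 0.01, standard error 0.14, limma-voom adjusted p = 0.972), and its groups overlapped.

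**Figure D1:**
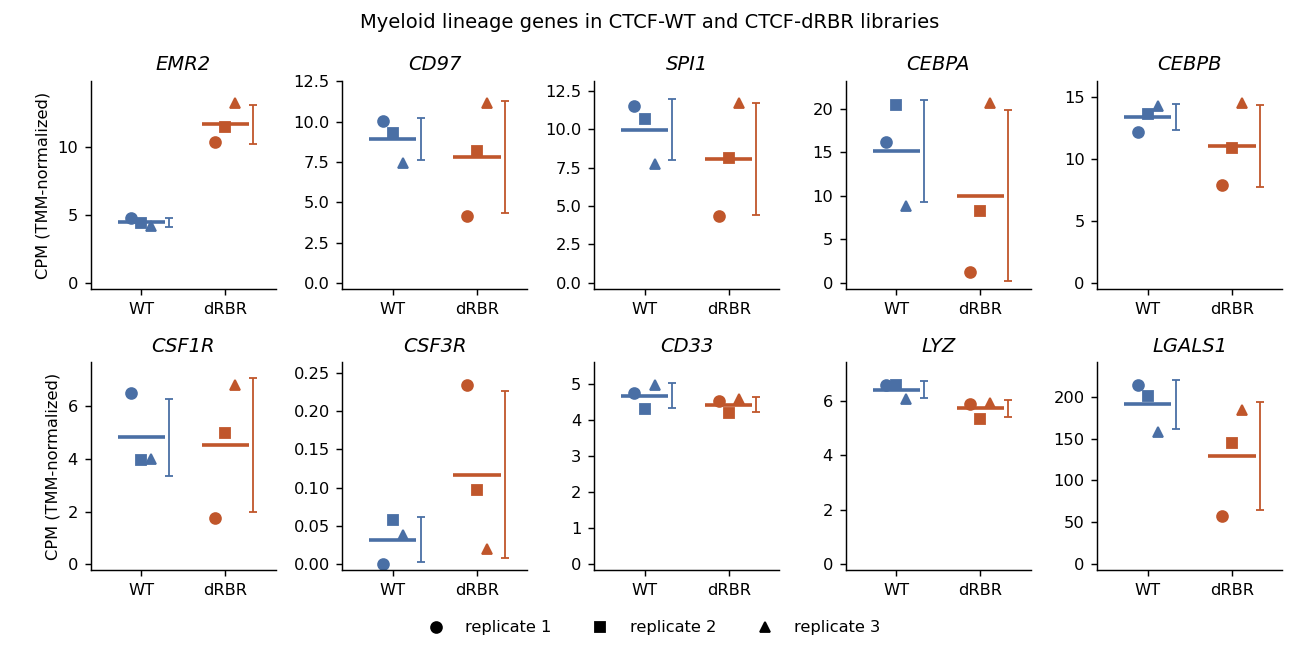
TMM-normalized CPM of the 10 members, 1 panel a gene, with 1 point a library, a line at the group mean and a bar of 1 SD. *EMR2* is the only member whose CTCF-dRBR libraries all lie above its CTCF-WT libraries, and CTCF-dRBR replicate 1 (circle) is the lowest point in 6 panels.

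*CD97* overlapped between the groups. Its level was 10.05, 9.27 and 7.46 CPM in CTCF-WT against 4.17, 8.15 and 11.1 CPM in CTCF-dRBR. CTCF-dRBR held both its lowest and its highest library. The log2 fold change was −0.26 (standard error 0.35, 95% confidence interval −1.11 to 0.60, limma-voom adjusted p = 0.617). Without CTCF-dRBR replicate 1 the sign turned, to 0.10 (limma-voom adjusted p = 0.720), and with the GC trend removed it was 0.28 (limma-voom adjusted p = 0.146). With the trend removed and without that library it was 0.35 (limma-voom adjusted p = 0.0293), in a fit that called 24.6% of all genes (10.5% higher).

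The expected counts of *EMR2* and *CD97* were linked in every library. Neither gene had whole counts, but their sum was whole, within 0.011, in 6 of 6 libraries, and of 7358 genes with fractional counts *CD97* was the only 1 that completed those of *EMR2* in this way. The sums were 727, 701 and 616 counts in CTCF-WT and 434, 1011 and 1253 counts in CTCF-dRBR, for replicates 1, 2 and 3. RSEM divides reads that match more than 1 gene, and these counts are what a common set of reads divided between the 2 genes gives. *EMR2* was given 32.2%, 32.1% and 35.9% of the pair's counts in CTCF-WT and 71.2%, 58.4% and 54.3% in CTCF-dRBR. These shares did not overlap between the groups, and the largest was in CTCF-dRBR replicate 1, where *CD97* was lowest.

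The sum of the pair does not depend on this split. It was 14.8, 13.7 and 11.6 CPM in CTCF-WT against 14.5, 19.6 and 24.3 CPM in CTCF-dRBR. CTCF-dRBR replicate 1 fell within the CTCF-WT range and the other 2 CTCF-dRBR libraries lay above it. The log2 fold change of the sum was 0.55 (standard error 0.22), smaller than that of *EMR2* alone. With 1 library left out at a time it ranged from 0.37 without CTCF-dRBR replicate 3 to 0.71 without CTCF-dRBR replicate 1. Since *EMR2* makes up part of the sum, it too was given no p-value. The number of shared reads in each library was not measured, as only their division between the genes is in the tables.

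**Figure D2:**
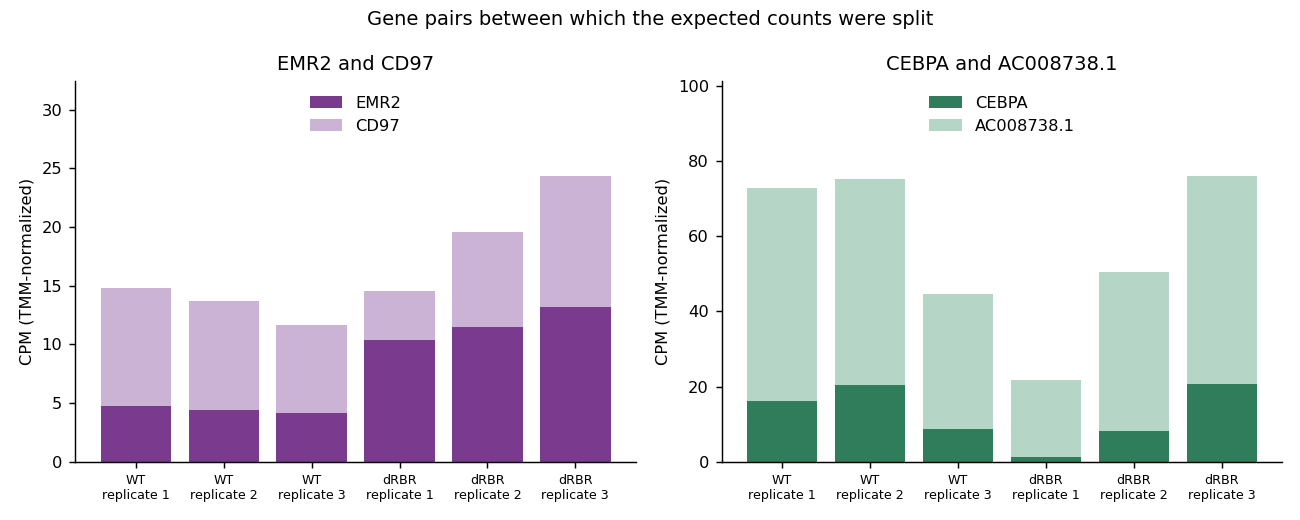
Stacked TMM-normalized CPM of *EMR2* with *CD97* (left) and of *CEBPA* with *AC008738.1* (right), 1 bar a library. *EMR2* fills 32.1% to 35.9% of its bars in CTCF-WT and 54.3% to 71.2% in CTCF-dRBR, and *CEBPA* fills 5.61% to 27.1% of its bars over all 6 libraries.

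The 8 other members that were tested did not pass the threshold in limma-voom (0 of 8, background 0.0%), and none had an unadjusted p under 0.05 (background 25.4%). Their log2 fold changes were all negative, with a median of −0.27, against −0.0076 for all genes tested. With voomWithQualityWeights, which weights each library, 5 of the 8 were called lower, in a fit that called 68.2% of all genes (35.8% lower). The common direction did not hold without CTCF-dRBR replicate 1 (median −0.09, *CD97* and *CSF1R* positive) or with the GC trend removed (median 0.15). In 6 members, *CD97*, *SPI1*, *CEBPA*, *CEBPB*, *CSF1R* and *LGALS1*, CTCF-dRBR replicate 1 was the lowest of the 6 libraries, as it was in 41.1% of all genes tested. The exonic GC content of these 6 lay between 56.3% and 66.2%, above that of *EMR2* (49.9%), *CD33* (47.1%) and *LYZ* (39.9%) and above the median of all genes (46.9%).

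**Figure D3:**
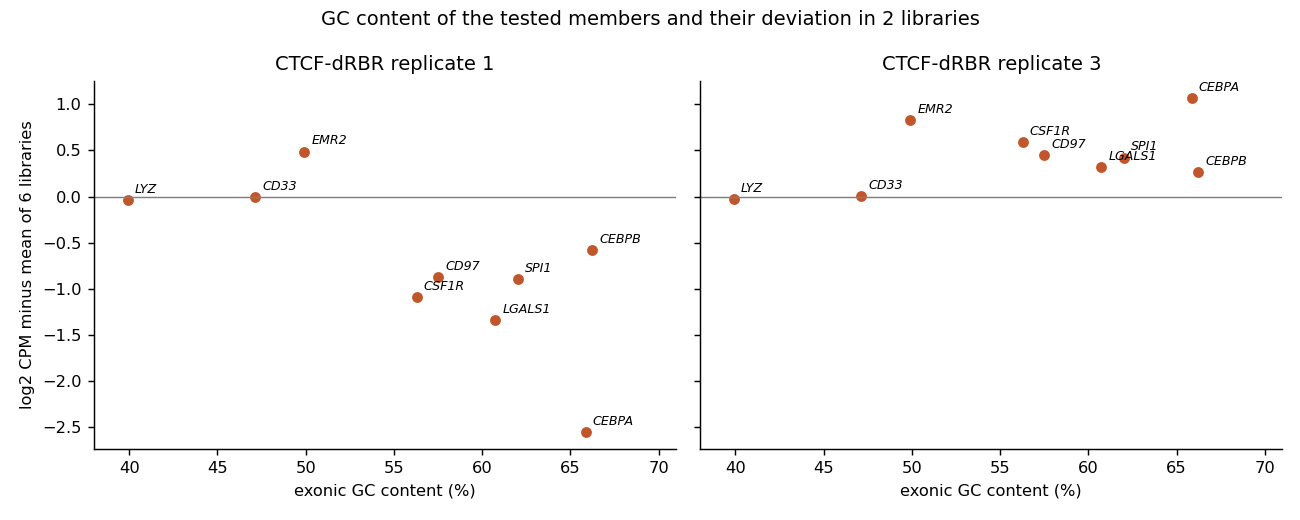
Exonic GC content (%) of the 9 tested members against log2 CPM minus its 6-library mean, in CTCF-dRBR replicate 1 (left) and replicate 3 (right). The 6 members above 56% GC lie below 0 in replicate 1 and above 0 in replicate 3, while *LYZ* and *CD33* lie near 0 in both and *EMR2* lies above 0 in both.

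Among the transcription factors, *SPI1* (ENSG00000066336.7, chr11:47376411-47400098, minus strand) encodes PU.1, which myeloid cells need at high and B cells at lower levels. It had 11.5, 10.7 and 7.70 CPM in CTCF-WT against 4.38, 8.10 and 11.7 CPM in CTCF-dRBR. The order of the libraries was close to that of *CD97*, with the lowest and highest values both in CTCF-dRBR. In limma-voom its log2 fold change was −0.36 (95% confidence interval −1.24 to 0.52, limma-voom adjusted p = 0.492), and −0.01 without CTCF-dRBR replicate 1 (limma-voom adjusted p = 0.971). With the GC trend removed the sign turned, to 0.39 (95% confidence interval 0.16 to 0.62, limma-voom adjusted p = 0.0514), and without that library as well it was 0.34 (limma-voom adjusted p = 0.0251, in the fit that called 24.6% of genes).

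*CEBPA* (ENSG00000245848.2, chr19:33790840-33793440, minus strand), which is required for granulocyte formation, varied more than any other tested member. It had 16.2, 20.4 and 8.80 CPM in CTCF-WT against 1.22, 8.26 and 20.6 CPM in CTCF-dRBR. A single library, CTCF-dRBR replicate 1, lay far below the rest, and the other 5 overlapped. The log2 fold change of −1.16 (standard error 0.93, limma-voom adjusted p = 0.396) became −0.13 without that library (limma-voom adjusted p = 0.859). *CEBPA* also shared its reads with another gene. Its fractional counts were completed to whole numbers in 6 of 6 libraries by those of *AC008738.1* (ENSG00000230259.2), a pseudogene, and *CEBPA* received 22.3%, 27.1% and 19.7% of the pair in CTCF-WT and 5.61%, 16.4% and 27.1% in CTCF-dRBR. The sum was 72.9, 75.4 and 44.8 CPM in CTCF-WT against 21.7, 50.4 and 76.0 CPM in CTCF-dRBR, with a log2 fold change of −0.44 (limma-voom adjusted p = 0.491), or −0.02 without CTCF-dRBR replicate 1 (limma-voom adjusted p = 0.963). With the GC trend removed the sum was higher in CTCF-dRBR, with a log2 fold change of 0.44 (limma-voom adjusted p = 0.0335, in a fit that called 9.78% of genes). The level of *CEBPA* itself is thus uncertain.

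*CEBPB* (ENSG00000172216.4, chr20:48807367-48809205, plus strand), a related factor induced in macrophages, had 12.2, 13.6 and 14.2 CPM in CTCF-WT against 7.86, 10.9 and 14.5 CPM in CTCF-dRBR. The highest library of either group was nearly the same. *CEBPB-AS1* overlaps the gene on the opposite strand over 669 bases and was not analysed here. The log2 fold change of *CEBPB* was −0.29 (95% confidence interval −0.84 to 0.26, limma-voom adjusted p = 0.392), −0.09 if CTCF-dRBR replicate 1 was left out and 0.61 with the GC trend removed (limma-voom adjusted p = 0.699 and 0.269).

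Of the receptors for colony-stimulating factors, *CSF1R* (ENSG00000182578.9, chr5:149432854-149492935, minus strand), the macrophage receptor, had 6.52, 3.97 and 4.00 CPM in CTCF-WT against 1.77, 5.00 and 6.81 CPM in CTCF-dRBR. The replicates of each group differed more than the group means did, which were 4.83 ± 1.46 and 4.53 ± 2.55 CPM (SD, n = 3). The log2 fold change was −0.18 (95% confidence interval −1.38 to 1.01, limma-voom adjusted p = 0.80), and 0.31 without CTCF-dRBR replicate 1 (limma-voom adjusted p = 0.424). Leaving out CTCF-WT replicate 1 instead gave 0.03. *RPL7P1*, a pseudogene within the gene on the opposite strand, had 75.1 CPM in CTCF-WT against 134 CPM in CTCF-dRBR on average, and its part in the *CSF1R* counts was not tested. *CSF3R* (ENSG00000119535.13, chr1:36931644-36948879, minus strand), the granulocyte receptor, was at the limit of detection, with 0, 3 and 2 counts in CTCF-WT and 7, 5 and 1 counts in CTCF-dRBR. An observed count of 0 allows up to 3 counts, or 0.0566 to 0.1003 CPM in these libraries, counting error only, and no difference in *CSF3R* was detectable at this depth (exact permutation test of CPM, two-sided, p = 0.3).

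The surface and effector genes differed less between libraries, with the exception of *LGALS1*. *CD33* (ENSG00000105383.10, chr19:51728320-51747115, plus strand), a sialic acid-binding receptor of myeloid cells, had 4.75, 4.29 and 4.96 CPM in CTCF-WT against 4.51, 4.19 and 4.56 CPM in CTCF-dRBR. All 6 libraries lay close together and the groups overlapped. Its log2 fold change was −0.08 (limma-voom adjusted p = 0.711), with a 95% confidence interval of −0.42 to 0.27, and −0.10 without CTCF-dRBR replicate 1.

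*LYZ* (ENSG00000090382.2, chr12:69742161-69748014, plus strand), which encodes lysozyme, had 6.58, 6.58 and 6.06 CPM in CTCF-WT against 5.88, 5.35 and 5.92 CPM in CTCF-dRBR. The groups did not overlap and CTCF-dRBR was lower, which held for 1 of the 8 members against a background of 17.5% of genes (two-sided exact permutation test of CPM, p = 0.1, which is the lowest p possible here). The difference was small, with a log2 fold change of −0.17 (95% confidence interval −0.49 to 0.16, limma-voom adjusted p = 0.406). Leaving out CTCF-dRBR replicate 1 gave −0.19, and removing the GC trend in all libraries gave −0.43 (95% confidence interval −0.78 to −0.07, limma-voom adjusted p = 0.114).

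*LGALS1* (ENSG00000100097.7, chr22:38071643-38075809, plus strand) encodes galectin-1, which is made by many cell types and is a known marker of B-ALL with KMT2A rearrangement. It had 214, 200.2 and 158 CPM in CTCF-WT against 58.2, 145 and 185 CPM in CTCF-dRBR. CTCF-dRBR replicate 1 was again far below the others. In limma-voom the log2 fold change was −0.68 (95% confidence interval −1.67 to 0.31, limma-voom adjusted p = 0.291), −0.21 without that library and 0.03 with the GC trend removed (limma-voom adjusted p = 0.373 and 0.845).

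**Figure D4:**
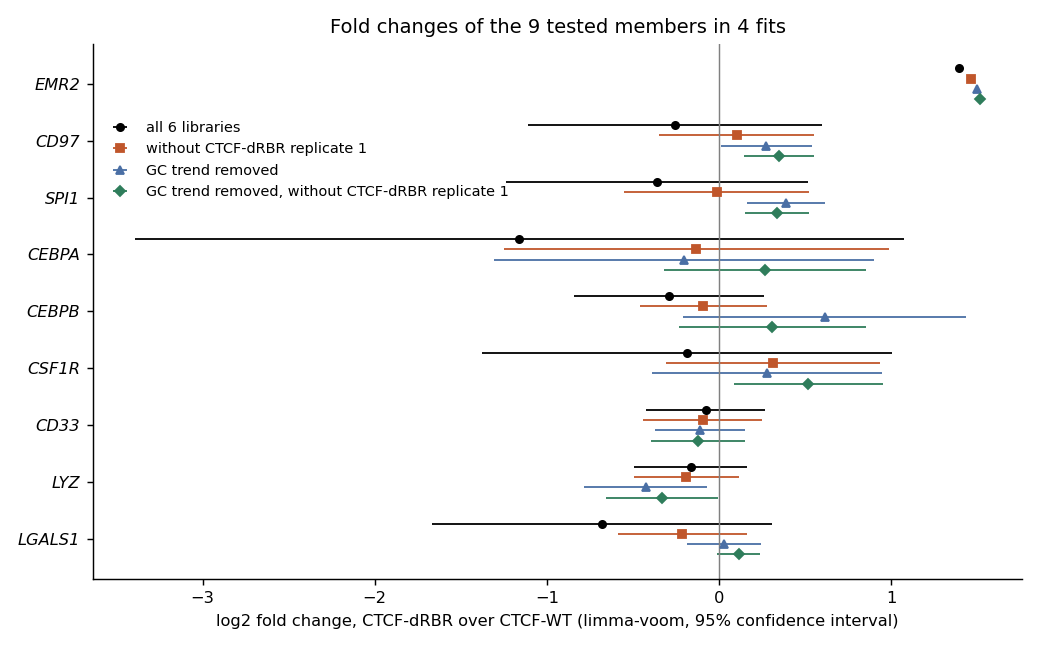
Log2 fold changes (CTCF-dRBR over CTCF-WT, limma-voom) of the 9 tested members in 4 fits, with 95% confidence intervals for all but *EMR2*, whose values chose it and are shown as points. *EMR2* lies between 1.39 and 1.52 in the 4 fits, while *CD97* and *CSF1R* cross 0 when CTCF-dRBR replicate 1 is left out and *SPI1*, *CEBPB* and *LGALS1* cross 0 when the GC trend is removed.

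Levels between genes were compared in TPM, which are divided by gene length, after rescaling each library to the same total over protein-coding genes. These genes held 30.2% to 63.2% of the deposited TPM of a library. In CTCF-WT, *LGALS1* led with 700.0 ± 115 rescaled TPM (SD, n = 3). It was followed by *SPI1* (12.2 ± 2.03), *CEBPB* (11.8 ± 1.35), *CEBPA* (9.04 ± 3.41), *LYZ* (7.72 ± 0.837) and *CD97* (7.27 ± 1.06), neighbors whose libraries overlapped. *CD33* (5.22 ± 0.847) and *CSF1R* (4.94 ± 0.618) overlapped with each other, *EMR2* lay below them at 1.51 ± 0.0427, and *CSF3R* was last at 0.053 ± 0.076. In CTCF-dRBR *EMR2* had 4.01 ± 0.775 and was still ninth of the 10, beside *CSF1R* (4.48 ± 2.32) and *CD33* (4.48 ± 0.674). In the deposited TPM without rescaling, all 9 other members overlapped between the groups (exact permutation test, two-sided, p = 0.2 to 1.0).

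Other genes of the myeloid program, in 4 lists of transcription factors, cytokines and receptors, granule proteins, and monocyte and phagocyte genes, lay on both sides of 0 in limma-voom with all 6 libraries. Of 58 genes listed, 25 were tested, and 0 passed the threshold in limma-voom. Their log2 fold changes were positive for 11 and negative for 14, with a median of −0.06 against −0.0076 for all genes. At an unadjusted p under 0.05, 4 were higher and 1 was lower (12.6% and 12.8% of all genes tested). The groups did not overlap for 7 higher and 2 lower genes, where 20.0% and 17.5% of all genes tested did so. These include *KITLG* and *FLT3LG*, which reached 1 CPM only in the group where they were higher. Other fits called genes of the monocyte and phagocyte list, with 0 calls in the other 3 lists, and every call was higher in CTCF-dRBR. DESeq2 called 2 (5.38% of all genes were called higher), the fit with the GC trend removed 2 (4.01%), the fit without CTCF-dRBR replicate 1 called 1 (1.52%), and the fit with both changes 5 (10.5%). The median of the 4 lists was 0.13 with the GC trend removed. Only voomWithQualityWeights, which called 68.2% of all genes, made calls in both directions, 9 higher and 6 lower.

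The transcription factors of that list with the largest levels differed little. *ZEB2* had 156 ± 6.48 CPM in CTCF-WT against 175 ± 10.7 CPM in CTCF-dRBR (SD, n = 3, log2 fold change 0.16), and *IRF8*, a factor of monocytes and B cells, had 110 ± 2.02 and 125 ± 19.6 CPM (0.17). Both were higher in CPM in every CTCF-dRBR library, whereas *RUNX1* (0.04) and *CEBPG* (0.26) overlapped. The limma-voom adjusted p of the 4 lay between 0.224 and 0.784. With the GC trend removed the log2 fold change was −0.10 for *ZEB2* and 0.22 for *IRF8*. Among receptors and ligands, *FLT3*, a growth factor receptor of early progenitors that is high in KMT2A-rearranged leukemia, had 2208 ± 257 and 2722 ± 192 CPM (log2 fold change 0.31, limma-voom adjusted p = 0.182). Its groups did not overlap, and with the GC trend removed the log2 fold change was 0.11. The log2 fold changes of the ligand genes *FLT3LG* and *KITLG* were −0.59 and 0.67, at levels near 1 CPM. *FLT3LG* reached 1 CPM only in CTCF-WT, and *KITLG* only in CTCF-dRBR replicate 1. Each was thus tested only through its higher group, so no p-value is given. *CSF2RB* (−0.34) and *IL6R* (−0.02) overlapped between the groups.

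Genes of the granule proteins were nearly silent. Of 16 listed, *CTSG*, the gene of cathepsin G, was the only 1 tested, with 2.701 ± 0.136 CPM in CTCF-WT against 2.19 ± 0.630 CPM in CTCF-dRBR (log2 fold change −0.30, limma-voom adjusted p = 0.392). The other 15 did not exceed 0.311 CPM in any library. *ELANE*, *S100A9*, *S100A12* and *DEFA4* had 0 counts in all 6 libraries. *CD14*, a defining monocyte marker, had 0 to 4 counts.

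Of 20 monocyte and phagocyte genes, 12 were tested. Their log2 fold changes were positive for 5 and negative for 7, with a median of −0.11. The median was 0.13 without CTCF-dRBR replicate 1, 0.28 with the GC trend removed and 0.27 with both changes. That of all genes was −0.01 in each of these fits. At an unadjusted p under 0.05 in limma-voom 3 were higher and 0 lower (12.6% and 12.8% of all genes tested). *ITGAM*, which encodes the CD11b integrin chain, had 4.99, 4.15 and 4.32 CPM in CTCF-WT against 5.48, 6.59 and 7.51 CPM in CTCF-dRBR. Every CTCF-dRBR library was higher. The log2 fold change was 0.54 (limma-voom adjusted p = 0.157, DESeq2 adjusted p = 0.0497, with 5.38% of all genes called higher by DESeq2). With the GC trend removed it was 0.89 (limma-voom adjusted p = 0.0208, in a fit that called 4.01% of all genes higher). *CD68*, a lysosomal protein of macrophages, overlapped, with a log2 fold change of 0.74 (limma-voom adjusted p = 0.218). It was 1.12 with the GC trend removed and CTCF-dRBR replicate 1 left out (limma-voom adjusted p = 0.0352, in a fit that called 10.5% of all genes higher). *ITGAM* and *CD68* were chosen after their values were seen, from a list where 7 of the 12 were negative with all 6 libraries. *CYBA*, *NCF4* and *NCF1* encode subunits of the phagocyte NADPH oxidase, and all 3 overlapped between the groups in CPM. *CYBA* had a log2 fold change of −1.33, *NCF4* of −0.42 and *NCF1*, whose near-identical pseudogenes can share its reads, of 0.18, with limma-voom adjusted p from 0.208 to 0.460. *CD86*, a costimulatory ligand, did not overlap between the groups, with 3.98 ± 0.0797 and 6.23 ± 1.43 CPM (log2 fold change 0.61, limma-voom adjusted p = 0.158), and *ANPEP*, the CD13 gene, had a log2 fold change of −0.16.

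Relatives and partners of the members were also read. Of 31 other adhesion G protein-coupled receptors 12 were tested, and 0 passed the threshold in limma-voom. Their median log2 fold change was −0.14 and 3 of the 12 were higher in every CTCF-dRBR library, near the 20.0% of all genes. These were the latrophilins *LPHN3* (257 ± 16.3 and 360 ± 44.9 CPM, log2 fold change 0.48) and *LPHN2* (1.09), and *BAI3* (0.78), with limma-voom adjusted p of 0.129, 0.142 and 0.132. DESeq2 called 3 of the 12, all higher (5.38% of all genes). With the GC trend removed 1 was called higher and 1 lower (9.78% of all genes in either direction). With CTCF-dRBR replicate 1 left out as well, 6 were called higher and 1 lower (24.6% of all genes in either direction, 10.5% higher). The list median was 0.23 without CTCF-dRBR replicate 1, 0.26 with the GC trend removed and 0.35 with both changes. *LPHN1* (−0.86), *CELSR2* (−0.58) and *GPR125* (−0.15) overlapped between the groups. *EMR1*, of the same family as *EMR2*, had 0.156 to 0.267 CPM, and *EMR3* had 0 to 0.0204 CPM.

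Of 4 genes listed for binding partners of CD97 or EMR2, 3 were tested, *CD55* at 14.7 ± 2.39 and 20.6 ± 5.69 CPM (log2 fold change 0.43), *ITGB1* at 255 ± 28.1 and 347 ± 115 CPM (0.39) and *ITGA5* at 43.6 ± 2.39 and 40.0 ± 15.6 CPM (−0.15). All 3 overlapped between the groups (limma-voom adjusted p 0.250, 0.278 and 0.714). With the GC trend removed and without CTCF-dRBR replicate 1, 1 of the 3 was called higher (10.5% of all genes). *THY1* was not tested and did not exceed 0.234 CPM in any library. *LGALS9*, the only other galectin gene tested of 10 listed, was lower in every CTCF-dRBR library. It had 21.0 ± 3.66 and 11.5 ± 4.19 CPM (log2 fold change −0.89, limma-voom adjusted p = 0.158). It was called lower with the GC trend removed (−0.52), and with CTCF-dRBR replicate 1 left out as well (−0.46). Those fits called 9.78% and 24.6% of all genes. Among the Siglecs, the family of *CD33*, 3 genes were tested and overlapped between the groups, *CD22* (0.13), *SIGLEC9* (−0.62) and *SIGLEC10* (0.11). With the GC trend removed 1 of the 3 was called higher (4.01% of all genes). With CTCF-dRBR replicate 1 left out as well, 2 were (10.5%).

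**Figure D5:**
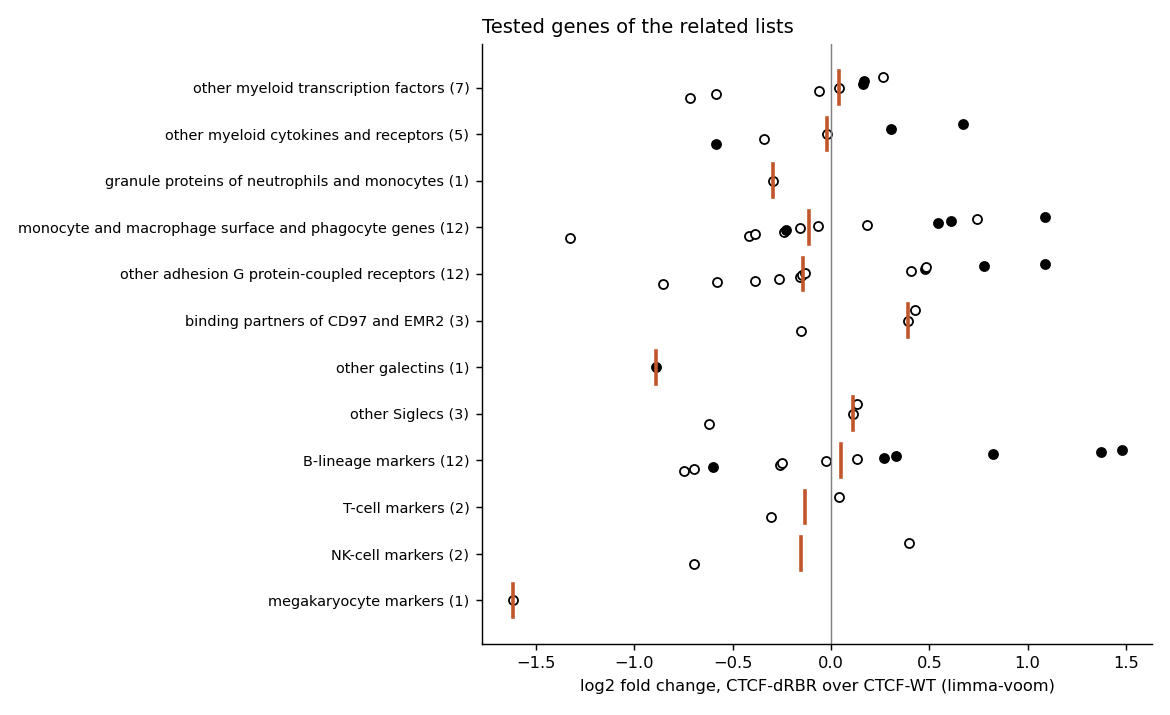
Log2 fold changes (CTCF-dRBR over CTCF-WT, limma-voom) of the tested genes of each related list, with the number tested in parentheses. Filled points are genes whose CPM did not overlap between the groups, and open points are genes that overlapped. The vertical line in each row is the list median with all 6 libraries. It was −0.11 for the 12 monocyte and phagocyte genes and 0.05 for the 12 B-lineage markers. With the GC trend removed these medians were 0.28 and 0.50.

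The B-lineage label of the cells was matched by their markers. Of 14 B-lineage genes 13 were found and 12 were tested, with *PAX5* at 361 ± 35.8 CPM and *EBF1* at 215 ± 12.7 CPM in CTCF-WT. In 5 of the 12 every CTCF-dRBR library was higher (20.0% of all genes), and in 1, *PAX5*, every one was lower (17.5%, log2 fold change −0.60, limma-voom adjusted p = 0.184). The recombinase genes *RAG1* and *RAG2* had log2 fold changes of 1.48 and 1.37 (limma-voom adjusted p = 0.0959 for both), in the range of *EMR2*, followed by *BLNK* (0.82), *CD72* (0.33) and *EBF1* (0.27). The other tested B-lineage genes that the rule names, *CD79A* (−0.70), *VPREB1* (−0.26) and *IGLL1* (−0.25), overlapped. Of the 12, DESeq2 called 3 (5.38% of all genes were called higher) and limma-voom with the GC trend removed called 5 (4.01%), all higher. The summed CPM of the B-lineage list ranged from 1003 to 1200 in CTCF-WT and from 734 to 1200 in CTCF-dRBR, with the lowest sum in CTCF-dRBR replicate 1. Markers of other blood cells were low or did not separate the groups. Among T-cell markers *LCK* (−0.30) and *TRAC* (0.04), among NK-cell markers *NCAM1* (0.39) and *NKG7* (−0.70), and of the megakaryocyte markers *GP9* (−1.62, standard error 1.09) were tested, all overlapping, and 0 of 9 erythroid markers reached 1 CPM.

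The genes most like *EMR2* across the 6 libraries, by Pearson's r of log2 CPM among 12088 candidates, were *TFDP2* (r = 0.998), *MILR1* (0.997), *RP11-356I2.4* (0.996), *CD72* (0.995) and *SERAC1* (0.993). All 5 were chosen for this likeness, which is a description over only 6 libraries in 2 groups. *MILR1*, an inhibitory receptor of mast cells, went from 2.29 ± 0.110 to 4.52 ± 0.575 CPM (log2 fold change 0.98). *TFDP2*, a partner of E2F factors, went from 20.8 ± 0.680 to 28.8 ± 1.31 CPM (0.47), and *CD72*, a B-cell surface receptor, from 76.5 ± 1.60 to 96.0 ± 4.20 CPM (0.33).

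The genes around *EMR2* went in both directions. Within 500000 bases on either side the annotation holds 49 genes of the table, of which 14 were tested, *CD97* included, and 0 passed the threshold in limma-voom. In 4 genes every CTCF-dRBR library was lower, *DDX39A* (log2 fold change −0.99), *DNAJB1* (−0.54), *TECR* (−1.29) and *NDUFB7* (−0.96), with limma-voom adjusted p from 0.102 to 0.147. *AC005255.3*, a pseudogene, was the only 1 with every CTCF-dRBR library higher (0.50, limma-voom adjusted p = 0.205). Over all genes tested 17.5% were lower and 20.0% higher in every CTCF-dRBR library, so 4 and 1 of 14 are read against those shares. Without CTCF-dRBR replicate 1 *DDX39A*, *DNAJB1* and *TECR* passed the threshold (limma-voom adjusted p = 0.0457, 0.0436 and 0.0436, in a fit that called 3.9% of genes). With the GC trend removed *TECR*, an enzyme of fatty acid elongation, was still lower (−0.93, limma-voom adjusted p = 0.0183), while *NDUFB7* had a log2 fold change of −0.12 and *DNAJB1* of −0.13. The remaining neighbors overlapped between the groups, among them *GIPC1* (−0.88), *ILVBL* (−1.30), *CLEC17A* (0.52), *ITGB1P1* (0.28) and *AC012318.3* (0.12).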

How the data were processed

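Total RNA was sequenced from 6 libraries, 3 a group. According to the methods and the submitters' processing notes, the authors trimmed the reads with Trim Galore (0.6.3), aligned them to GRCh37 with STAR (2.7.9a) and quantified Gencode genes with RSEM (1.3.1). The deposited expected counts are RSEM estimates without normalization. The deposited TPM were scaled by the authors over all genes, small RNAs included. Spike-in rows (92) had 0 counts.

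Genes were tested if they reached 1 CPM in any library. Counts were TMM-normalized in edgeR (4.0.16) and groups were compared by limma-voom (limma 3.58.1, R 4.3.3) without covariates, two-sided, with Benjamini-Hochberg adjustment over 14044 genes and a threshold of 0.05. Printed CPM are TMM-normalized. Members under that minimum and TPM were compared by an exact permutation test. Neither labels nor methods say whether replicates were separate cultures, so p-values measure only the spread between these libraries. The GC trend was a loess fit (span 0.5, degree 2) of each library's deviation over the GC content of 13654 genes (97.2%), subtracted on the log scale. Alternatives were edgeR's quasi-likelihood test and DESeq2 (1.42.0) on rounded counts, voomWithQualityWeights, limma-trend on log2 TPM with a pseudocount of 1 or 0.1, other scalings and filters, the replicate number as a block, and each library left out.

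Coordinates and exons were those of a lifted Gencode annotation of GRCh37, matched by Ensembl identifier, and the genome of that build. Members and lists were chosen with earlier results of these data known. All members were named, and from each list the 4 tested genes of largest mean TPM and any whose groups did not overlap with a log2 fold change over 0.58 in size. For EMR2, the 5 most correlated genes and every tested gene within 500000 bases were named. Genes named beyond this rule (CD14, CD68, ITGAM, CD72, EBF1, EMR1, EMR3 and granule genes at 0 counts) were chosen after their values were seen, and some genes that the rule names are not reported here. Figures were drawn with matplotlib (3.10.9).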

Additional observations from a re-analysis of the deposited data

How the results depend on the processing

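The number of genes past an adjusted p of 0.05 was 0 in limma-voom with all 6 libraries and moved to 1619 with DESeq2, 1335 with the GC trend removed, 3285 with the trend removed and without CTCF-dRBR replicate 1, 743 and 830 with limma-trend on log2 TPM with a pseudocount of 0.1 and 1, and 9583 with voomWithQualityWeights. Leaving out each library gave 0 to 535 genes, and only without CTCF-dRBR replicate 1 was the number above 0. Of the members other than EMR2, 2 passed with the GC trend removed and without CTCF-dRBR replicate 1 (CD97 and SPI1, both higher), and 5 with voomWithQualityWeights (SPI1, CEBPA, CEBPB, LYZ and LGALS1, all lower), which called 68.2% of all genes. Of the listed genes, 8 passed with DESeq2, 10 with the GC trend removed, 25 with the trend removed and without CTCF-dRBR replicate 1, 5 and 6 with limma-trend at these pseudocounts, 42 with voomWithQualityWeights and 0 to 3 when a library was left out. Of the genes around EMR2, 4 passed with DESeq2, 1 with the GC trend removed, 5 with the trend removed and without CTCF-dRBR replicate 1, 10 with voomWithQualityWeights and 0 to 3 when a library was left out.

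Log2 fold changes that were negative in limma-voom turned positive as follows, and the cause was not tested. With the GC trend removed they were 0.28 for CD97, 0.39 for SPI1, 0.61 for CEBPB, 0.28 for CSF1R, 0.029 for LGALS1 and 0.44 for the sum of CEBPA and AC008738.1. With the trend removed and without CTCF-dRBR replicate 1 they were 0.35 for CD97, 0.34 for SPI1, 0.27 for CEBPA, 0.31 for CEBPB, 0.52 for CSF1R and 0.11 for LGALS1. With limma-trend at a pseudocount of 0.1 (median of all genes 0.54) they were 0.39 for CD97, 0.19 for SPI1, 0.22 for CEBPB, 0.37 for LYZ, 0.24 for CD33 and 0.15 for CSF1R. At a pseudocount of 1 (median 0.40) they were 0.31, 0.17, 0.18, 0.30, 0.17 and 0.12 for the same genes. CSF1R was 0.23 with voomWithQualityWeights. When libraries were left out in turn, CSF1R ranged from −0.55 without CTCF-dRBR replicate 3 to 0.31 without CTCF-dRBR replicate 1, with 0.032 without CTCF-WT replicate 1, and CD97 from −0.56 to 0.10 without the same CTCF-dRBR replicates. Differences of TPM that were positive as deposited were negative after rescaling over protein-coding genes, −1.34 for SPI1, −1.41 for CEBPB, −0.43 for LYZ, −0.73 for CD33 and −0.46 for CSF1R.

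Neither labels nor methods say whether same-numbered libraries were prepared together. Their deviations from the group means correlated at −0.473, 0.143 and −0.599. These deviations also hold the GC trends of the libraries, so they cannot settle whether the samples were paired. With the replicate block no gene passed (0), and an unadjusted p under 0.05 was seen for 1423. With the replicate block and the GC trend removed 0 passed, and the log2 fold changes were 0.27 for CD97, 0.40 for SPI1, 0.65 for CEBPB, 0.29 for CSF1R and 0.028 for LGALS1. With 3 libraries a group, the exact permutation test cannot go below p = 0.1.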
